A study of Homo sapiens with 28 samples.

Results

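The 10 genes described here, H2BC3, H2BC5, H2BC9, H2BC11, H2BC12, H2BC13, H2BC14, H2BC17, H2BC18 and H2BC21, each encode histone H2B. They were chosen by gene ID among the probe sets of the deposited expression table, and because H2B genes stood on both sides of the vehicle control after treatment. Their differences from the vehicle therefore chose them and are given as a description, with no test. They were 10 of 22357 genes that had a probe set naming them alone, and 10 of 9285 that passed a filter on dim genes. A gene passed where its log2 intensity was above 5 on at least 4 arrays. The 10 genes had 12 probe sets of their own, 3 of them for H2BC18 and 1 for each other gene.

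RNA was measured on 28 Affymetrix arrays in CHL-1, an established human melanoma cell line cultured in DMEM with fetal calf serum. The cells received BAY1238097, an inhibitor of the BET bromodomain proteins, at 75 nM or 468 nM, or DMSO as the vehicle, and were harvested at 4 h or 24 h. The submitters gave 75 nM as the IC50 and 468 nM as the IC90 of the compound. Each DMSO group had 4 arrays, and each of the 4 groups of a dose and a time had 5. All were of the 1 line, and nothing in the labels ties replicates to cultures of their own. P-values thus measure only how far these samples varied, and that variation may be technical.

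H2B is a core histone of the nucleosome and pairs with H2A. Most of its genes lie in clusters with other histone genes and are transcribed mainly in S phase, giving short RNA that ends in a stem-loop in place of a poly(A) tail. Some of them, H2BC5 and H2BC21 among them, are known to give polyadenylated RNA as well. H2B promoters are known for an octamer element, bound by the POU factor POU2F1, that lies just upstream of a TATA box. BET proteins bind acetylated histones and recruit factors for transcription elongation.

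The octamer was searched as ATTTGCAT on both strands in the 250 bases before each RefSeq start (GRCh38.p14; 1 window per gene), and all 10 genes matched an entry. It was present in 8 of the 10 promoters, against 1.68% of 27305 promoters in the table. CCAAT was present in 10 of 10 (32.9% of all promoters), TATAAA in 8 of 10 (11.3%) and CACGTG, an E-box, in 0 of 10 (6.33%). Among 10 promoters of other H2B genes, the octamer was in 6, CCAAT in 10, TATAAA in 4 and CACGTG in 0. Among 22 promoters of H2A genes, these were in 11, 20, 14 and 0, so the motifs are not particular to the members. None of the 4 motifs holds another. The 110 bases before the start are shown for the genes that stood farthest from the vehicle, H2BC14, H2BC18, H2BC5 and H2BC21, and for H2BC13, whose promoter was the most like that of H2BC14. Capitals mark the octamer, or a stretch that differs from it by 1 base, and TATAAA. The lines read 5′ to 3′ on the gene's strand, and end at the last base before the start. The positions are chr6:27814912-27815021 (plus strand) for H2BC14, chr6:27807930-27808039 (minus strand) for H2BC13, chr6:26158011-26158120 (plus strand) for H2BC5, chr1:149812371-149812480 (minus strand) for H2BC18 and chr1:149886683-149886792 (minus strand) for H2BC21.
H2BC14: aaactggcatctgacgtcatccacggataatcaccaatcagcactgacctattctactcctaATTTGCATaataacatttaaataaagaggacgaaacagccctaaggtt
H2BC13: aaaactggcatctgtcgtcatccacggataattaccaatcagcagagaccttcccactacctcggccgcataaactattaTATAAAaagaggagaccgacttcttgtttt
H2BC5: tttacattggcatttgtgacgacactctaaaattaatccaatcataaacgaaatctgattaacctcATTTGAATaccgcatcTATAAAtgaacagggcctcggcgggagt
H2BC18: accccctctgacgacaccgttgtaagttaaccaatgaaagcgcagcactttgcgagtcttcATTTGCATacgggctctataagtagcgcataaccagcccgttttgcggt
H2BC21: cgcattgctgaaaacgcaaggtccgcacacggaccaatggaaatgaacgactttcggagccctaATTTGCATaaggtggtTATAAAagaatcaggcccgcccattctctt

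The octamer began 48 bases before the start of H2BC14, 49 before that of H2BC18 and 46 before that of H2BC21. H2BC14 stood far below the vehicle, and H2BC18 and H2BC21 stood above it. A link between the octamer and the direction was not tested. H2BC5, which stood above the vehicle, and H2BC13, which stood below it at 468 nM and 24 h, had no exact match in 250 bases. The nearest stretch of H2BC5 matched 7 of 8 bases and differed by C6A, counted from 1 at the octamer's 5′ end. The promoters of H2BC13 and H2BC14 were identical at 207 of 249 bases (83.1%), and the next most alike pair, H2BC11 and H2BC12, at 52.4%. Where H2BC14 has the octamer, H2BC13 matched 4 of 8 bases and differed by A1G, T2G, T3C and T4C. H2BC9, H2BC11 and H2BC12 had the octamer 49, 47 and 49 bases before the start, while those of H2BC3 and H2BC17 lay farther away, at 120 and 149. Nearer the start, both also had a stretch that matched 7 of 8 bases. It began at 46 in H2BC3, with the same C6A as in H2BC5, and at 49 in H2BC17, with T3C. These are matches of letters, and no binding was measured.

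The values are log2 of the deposited intensities, which are relative to each array's own distribution. The median of all probe sets lay between 2.44 and 2.49 on every array, so a value near there is that of a dim probe set. In bulk RNA, fewer cells that express a gene and less RNA per cell cannot be told apart. Levels are not compared between genes, since each probe set has its own brightness.

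**Figure D1:**
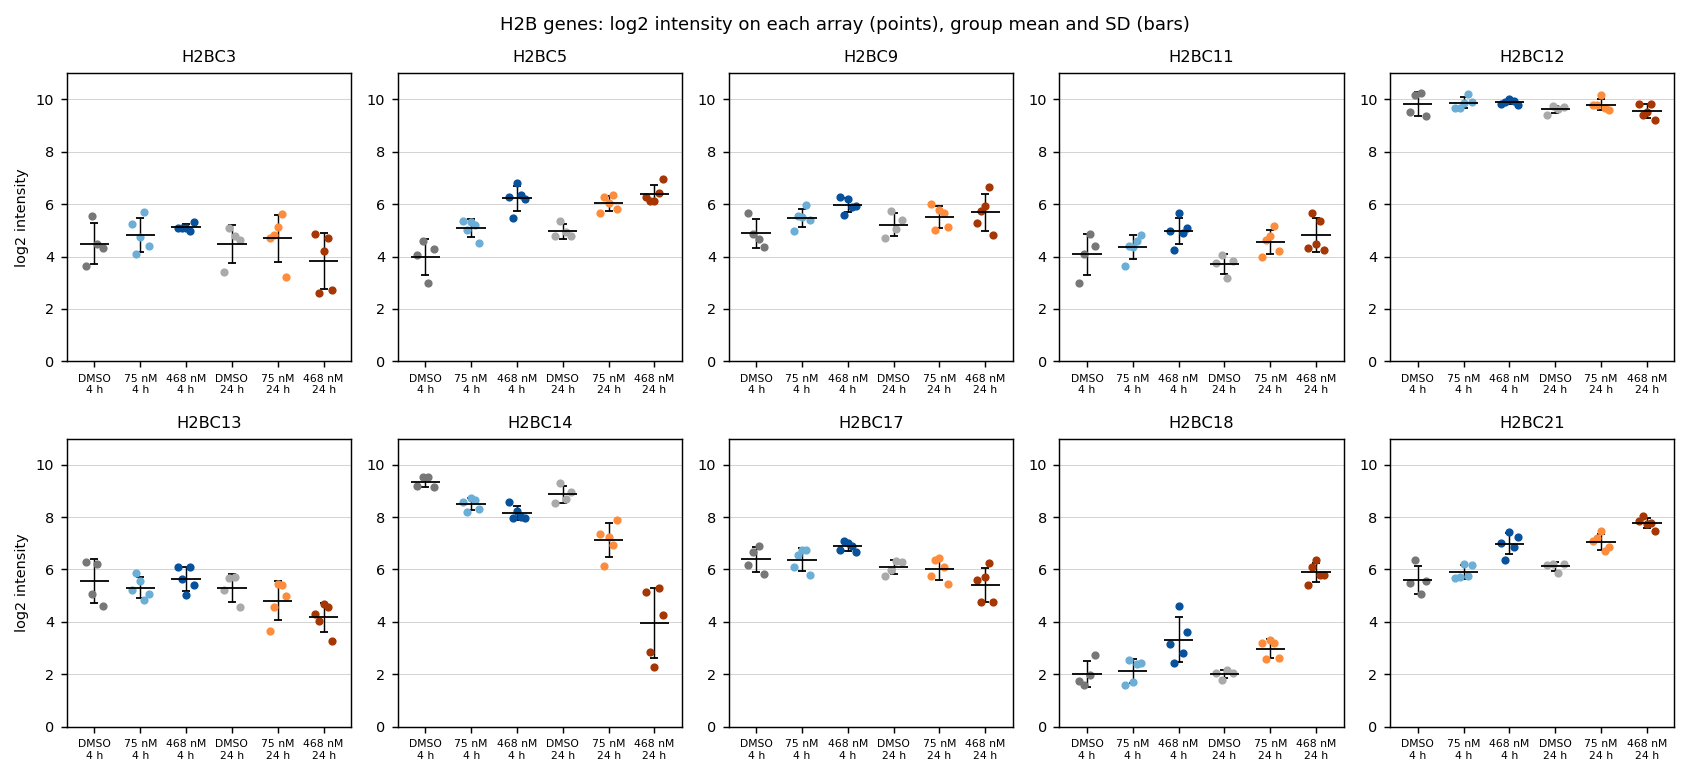
Log2 intensity of the 10 H2B genes (vertical axis, 1 panel per gene, the same scale in all panels) on each of 28 arrays, by dose and time. Points are arrays, horizontal lines group means and bars SD. H2BC14 steps down to a mean of 3.96 at 468 nM and 24 h, H2BC18 steps up to 5.89, and H2BC12 stays between 9.56 and 9.89.

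H2BC14, a gene of the chromosome 6 cluster, was the member farthest below the vehicle. Under DMSO it read 9.17, 9.53, 9.54 and 9.15 at 4 h and 8.55, 9.30, 8.70 and 8.95 at 24 h. At 75 nM it read 8.57, 8.20, 8.72, 8.64 and 8.31 at 4 h and 7.37, 6.13, 7.25, 6.94 and 7.89 at 24 h. At 468 nM it read 8.57, 7.95, 8.24, 8.0 and 7.95 at 4 h and 5.12, 2.86, 2.27, 5.30 and 4.25 at 24 h. Every treated array lay below every DMSO array of its time, at both doses. The 5 arrays of 468 nM at 24 h were far lower than the rest and also the most spread, with an SD of 1.35 against 0.22 to 0.65 in the other groups. The lowest, at 2.27, lay below the median of every array.

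In the fit with limma, a linear model over all genes, H2BC14 differed from DMSO at 4 h by -0.86 ± 0.42 (SE) at 75 nM and -1.20 ± 0.42 at 468 nM. At 24 h the differences were -1.76 ± 0.42 and -4.92 ± 0.42, the last a 30.2-fold lower level. The groups followed the order 468 nM at 24 h (3.96), 75 nM at 24 h (7.12), 468 nM at 4 h (8.14), 75 nM at 4 h (8.49), DMSO at 24 h (8.87) and DMSO at 4 h (9.35). Neither of the groups at 24 h with the compound overlapped with the next in that order. From 468 nM at 4 h upward, each group overlapped with the next. Between the doses, 468 nM was lower by a difference of -0.35 ± 0.40 at 4 h, less than its error, and of -3.16 ± 0.40 at 24 h. Each of these errors comes from 1 spread shared by all 6 groups, the widely spread 468 nM group at 24 h among them. At 4 h the SD was only 0.22 at 75 nM and 0.27 at 468 nM, and the arrays of these doses overlapped.

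H2BC18, on chromosome 1, was the member farthest above the vehicle. The probe set that stands for it, 16692603, read 1.74, 1.60, 1.97 and 2.73 under DMSO at 4 h and 2.03, 1.79, 2.15 and 2.03 at 24 h. At 75 nM it read 1.58, 2.54, 1.71, 2.39 and 2.41 at 4 h and 3.19, 2.58, 3.31, 3.20 and 2.60 at 24 h. At 468 nM it read 3.17, 2.42, 4.61, 2.79 and 3.61 at 4 h and 5.42, 6.10, 6.36, 5.80 and 5.79 at 24 h. Both doses lay wholly above DMSO at 24 h, while at 4 h the arrays overlapped. The 468 nM arrays at 24 h stood apart from every other array. They were also the only 5 arrays on which this gene was above 5, so it passed the filter through that group alone and had to differ there.

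H2BC18 differed from DMSO at 4 h by 0.12 ± 0.31 (SE) at 75 nM and 1.31 ± 0.31 at 468 nM, and at 24 h by 0.98 ± 0.31 and 3.89 ± 0.31. The last is a 14.9-fold higher level, taken against DMSO values below the median of every array. A second probe set, 16692611, went from 2.24 ± 0.23 (SD, n = 4) under DMSO to 6.01 ± 0.29 (n = 5) at 468 nM and 24 h, again without overlap. The third, 16669443, was dim throughout and went from 1.56 ± 0.35 to 2.76 ± 0.26. In the RefSeq annotation H2BC18 overlaps FCGR1A and LOC124904411, and whether these probe sets separate the overlapping genes was not tested.

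**Figure D2:**
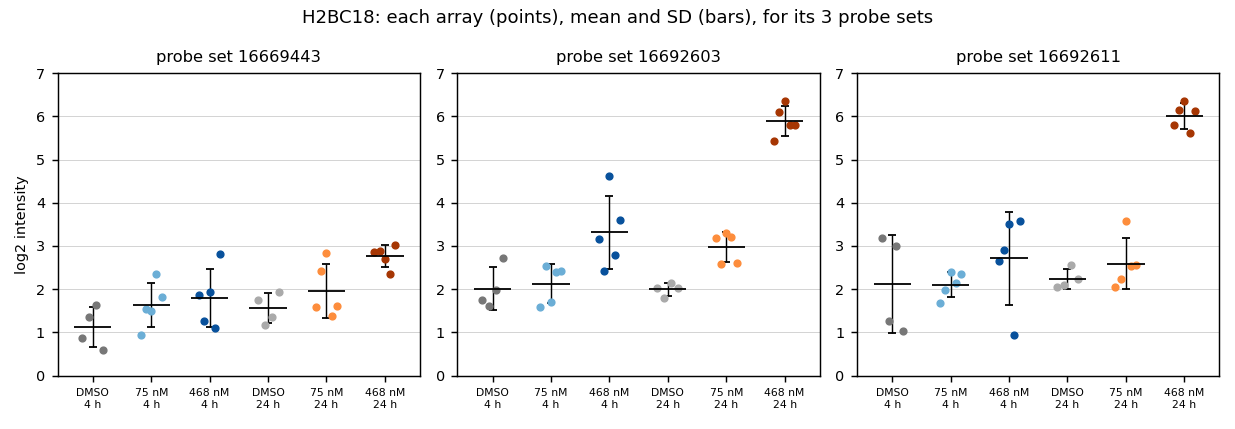
Log2 intensity of the 3 probe sets that name H2BC18 alone (vertical axis, 1 panel each) by dose and time. Points are arrays, horizontal lines means and bars SD. All 3 are highest at 468 nM and 24 h, with means of 5.89, 6.01 and 2.76.

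H2BC5 was above DMSO at both doses and both times. Under DMSO it read 4.06, 4.59, 2.98 and 4.30 at 4 h and 4.77, 5.37, 4.95 and 4.78 at 24 h. At 75 nM it read 5.37, 5.01, 5.32, 5.21 and 4.51 at 4 h and 5.67, 6.28, 6.04, 6.35 and 5.82 at 24 h. At 468 nM it read 6.29, 5.48, 6.79, 6.36 and 6.20 at 4 h and 6.27, 6.12, 6.13, 6.44 and 6.97 at 24 h. All treated arrays were above all DMSO arrays of their time, except that 1 array of 75 nM at 4 h lay within the DMSO range. The 2 groups of 468 nM and the 75 nM group at 24 h formed the top of the order, each overlapping with the next.

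The differences of H2BC5 from DMSO at 4 h were 1.10 ± 0.27 (SE) at 75 nM and 2.24 ± 0.27 at 468 nM. At 24 h they were 1.06 ± 0.27 and 1.42 ± 0.27, so the doses stood apart by 1.14 ± 0.25 at 4 h and by 0.35 ± 0.25 at 24 h. Its DMSO level was itself higher at 24 h. H2BC5 was above 5 on 1 DMSO array and on 19 treated arrays, so it could not have passed the filter on DMSO arrays alone. H2BC5 overlaps H2BC6-AS1 and LARP1P1 in the annotation.

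H2BC21, the other member on chromosome 1, read 5.47, 6.35, 5.05 and 5.55 under DMSO at 4 h and 6.18, 6.22, 5.86 and 6.21 at 24 h. At 75 nM it read 5.67, 5.72, 6.21, 5.74 and 6.17 at 4 h and 7.08, 7.19, 7.46, 6.70 and 6.84 at 24 h. At 468 nM it read 7.0, 6.37, 7.44, 6.85 and 7.25 at 4 h and 7.85, 8.03, 7.75, 7.79 and 7.48 at 24 h. The groups did not overlap with DMSO at 468 nM and 4 h or at either dose at 24 h, and the 75 nM arrays at 4 h did. At each time every array of 468 nM was above every array of 75 nM. The differences from DMSO were 0.30, 1.38, 0.94 and 1.66 for 75 nM and 468 nM at 4 h and 75 nM and 468 nM at 24 h, each with an SE of 0.21.

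**Figure D3:**
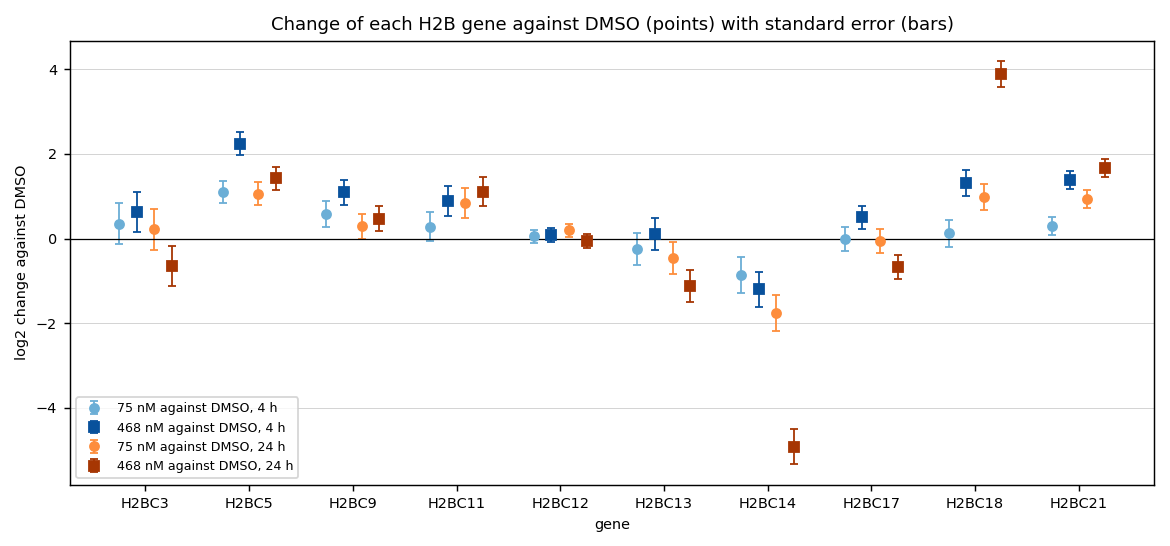
Difference from DMSO of the same time (vertical axis, log2) for each H2B gene (horizontal axis) at 75 nM and 468 nM, 4 h and 24 h. Points are limma estimates and bars SE. At 468 nM and 24 h the genes run from -4.92 (H2BC14) to 3.89 (H2BC18), while H2BC12 lies at -0.06.

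H2BC9 and H2BC11, of the chromosome 6 cluster, were above DMSO by smaller amounts. H2BC9 went from 4.89 ± 0.56 (SD, n = 4) under DMSO at 4 h to 5.47 ± 0.35 (n = 5) at 75 nM and 5.97 ± 0.26 (n = 5) at 468 nM. At 24 h it went from 5.22 ± 0.45 to 5.51 ± 0.42 and 5.69 ± 0.70, and the ranges of treated and DMSO arrays overlapped at both times. H2BC11 went from 4.08 ± 0.79 to 4.36 ± 0.45 and 4.97 ± 0.50 at 4 h, and from 3.71 ± 0.37 to 4.54 ± 0.47 and 4.82 ± 0.66 at 24 h. The 468 nM arrays of H2BC11 lay wholly above DMSO at 24 h. H2BC11 was above 5 on 0 DMSO arrays and on 5 treated arrays, so it too passed the filter through treated arrays alone.

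H2BC3, H2BC13 and H2BC17, of the same cluster, overlapped with DMSO throughout, and their means at 468 nM stood above it at 4 h and below it at 24 h. H2BC17 was 6.38 ± 0.48 (SD, n = 4) under DMSO and 6.88 ± 0.18 (n = 5) at 468 nM at 4 h. At 24 h it was 6.08 ± 0.27 and 5.41 ± 0.66, so its differences were 0.50 ± 0.28 (SE) and -0.67 ± 0.28. The differences of H2BC3 were 0.63 ± 0.48 and -0.65 ± 0.48, little more than their errors. Those of H2BC13 were 0.10 ± 0.38 and -1.12 ± 0.38. The first turned below 0 under 5 alternatives, the shift of arrays to level reference genes among them. It ran from -0.22 to 0.35 as single arrays were left out. All 3 were lowest at 468 nM and 24 h. H2BC3 was above 5 on 2 DMSO arrays and on 8 treated arrays, and also needed treated arrays to pass the filter.

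H2BC12, which overlaps H4C9 in the annotation, gave group means from 9.56 to 9.89. Its differences from DMSO ran from -0.06 ± 0.16 (SE) to 0.19 ± 0.16, and neighbouring groups overlapped everywhere in its order. The sign of its difference at 468 nM and 4 h, 0.08 ± 0.16, turned under 3 alternatives, the shift of arrays to level reference genes among them. That difference ran from -0.08 to 0.22 as single arrays were left out.

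Set beside all genes, the counts past the threshold (limma, Benjamini-Hochberg adjusted p below 0.05 over 9285 genes) were as follows, and nothing is read from them, since these contrasts chose the genes. At 75 nM and 4 h 0 of 10 members passed, against 0.679% of all genes tested. By unadjusted p, 1 of 10 was below 0.05, a level for which the share of all genes is not given here. After 4 h of 468 nM 4 passed (10.9% of all genes), H2BC5, H2BC9, H2BC18 and H2BC21, and all 4 were higher (3.96% of all genes were). H2BC14 (-1.20) did not pass there (adjusted p = 0.0669), but did with only the groups compared in the fit (0.000881). It also passed with arrays shifted to level reference genes (0.0338), with a filter at 7 (0.0487), or without any 1 of 468 nM replicates 1, 2, 3 and 4 of 24 h. At 75 nM and 24 h 2 passed (0.872%), H2BC21 higher and H2BC14 lower. After 24 h of 468 nM 6 passed (45.6%). H2BC5, H2BC11, H2BC18 and H2BC21 were higher (20.4% of all genes), and H2BC13 and H2BC14 lower (25.1%).

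Between the doses, 3 passed at 4 h (2.56%), H2BC5, H2BC18 and H2BC21, all higher at 468 nM (1.13%). At 24 h 3 passed (30.8%), H2BC18 and H2BC21 higher and H2BC14 lower. The difference of 75 nM from DMSO changed with time in 0 of 10 (limma, 0.0323% of all genes). By unadjusted p, 1 of 10 was below 0.05, and again the share of all genes is not given. That of 468 nM changed in 3 of 10 (23.5%), higher at 24 h for H2BC18 and lower for H2BC14 and H2BC17.

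The median difference over the 10 members was 0.76 at 468 nM and 4 h and 0.20 at 468 nM and 24 h, beside -0.027 and -0.019 over all genes tested. After 4 h 9 members lay above 0 and 1 below, and after 24 h 5 lay on each side. Treated and DMSO arrays did not overlap at 468 nM and 24 h for 4 members that were higher and 1 that was lower, against 30.1% of all genes in either direction. The 2 calls at 75 nM and 24 h were near the threshold (limma adjusted p = 0.0378 for H2BC14 and 0.0283 for H2BC21). The count ranged from 0 to 3 as arrays were left out, while the differences ran from -1.95 to -1.51 for H2BC14 and from 0.83 to 1.02 for H2BC21. The call of H2BC14 ended without any 1 of DMSO replicates 1, 2, 3 and 4 or 75 nM replicates 1, 2, 3 and 4 at 24 h, and that of H2BC21 without any 1 of the same DMSO replicates or 75 nM replicates 1, 2 and 3.

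The DMSO arrays are part of the contrasts against DMSO that chose the members, so their change over time is also a description, with no test. H2BC5 was higher at 24 h than at 4 h by 0.99 ± 0.28 (SE), with all 4 arrays of 24 h above all 4 of 4 h. The other members ran from -0.47 ± 0.44 (H2BC14) to 0.51 ± 0.23 (H2BC21). H2BC5 was the 1 of 10 members past the threshold, against 5.23% of all genes tested. It no longer passed with no filter, with only the groups compared in the fit, or when DMSO replicate 1 or 3 of 4 h, or 2, 3 or 4 of 24 h, was left out.

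Over the 28 arrays the members fell along the same lines. H2BC5 and H2BC21 had a Pearson correlation of 0.85, H2BC18 and H2BC21 of 0.83, and H2BC14 and H2BC18 of -0.90. These arrays share their dose and time groups, and with each group's mean removed the same pairs gave 0.41, 0.28 and -0.25. H2BC12, H2BC17 and H2BC3 kept most of their correlation within groups, at 0.71 for H2BC12 and H2BC17, 0.66 for H2BC3 and H2BC17 and 0.64 for H2BC3 and H2BC12. H2B coding regions are nearly identical, and whether probes of one gene also bind RNA of another was not tested.

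**Figure D4:**
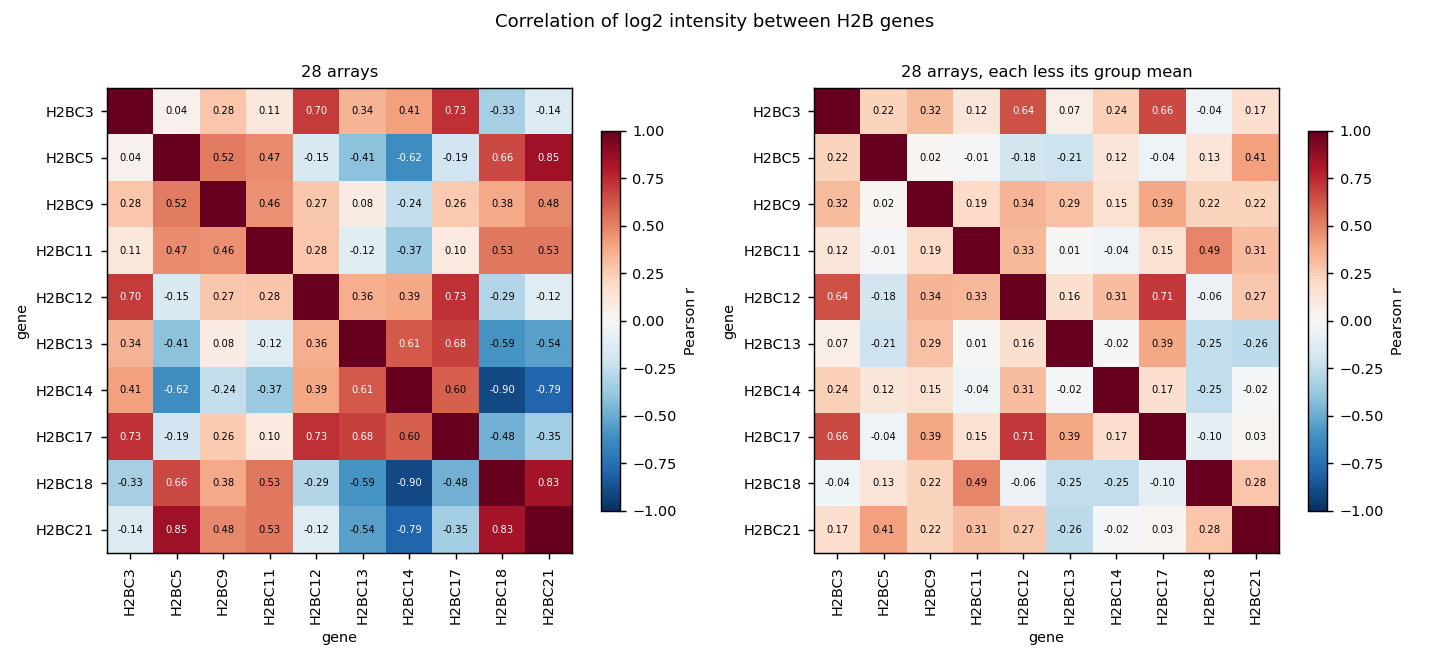
Pearson correlation of log2 intensity between the 10 H2B genes over 28 arrays, as measured (left) and after each group's mean was removed (right); red is above 0 and blue below. H2BC14 and H2BC18 are at -0.90 on the left and -0.25 on the right, while H2BC12 and H2BC17 are at 0.73 and 0.71.

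The genes whose values over the 28 arrays were most like those of H2BC5 were, among histone genes, H2BC21 and, among others, AHR, a ligand-activated transcription factor, SLFN5 and TESK2 (r = 0.82 each) and TST and EPB41L5 (0.80). AHR went from 7.22 under DMSO to 8.44 at 468 nM at 4 h, and from 7.68 to 8.61 at 24 h. Those most like H2BC14 were MCM5, a subunit of the replicative helicase, PLK1, a mitotic kinase, and LRRC59 (0.95 each), and HJURP, the chaperone of the centromeric H3, and DAZAP1 (0.94). MCM5 went from 9.60 to 9.25 at 4 h and from 9.34 to 7.80 at 24 h, and the most alike histone gene, H1-2, had an r of 0.88. The points share their groups, so these are descriptions.

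Histone genes often lie in pairs that start close together and are read in opposite directions. Of the members, H2BC11, H2BC13, H2BC14, H2BC17 and H2BC21 had such an H2A neighbour within 500 bases in the annotation, and 2 of those neighbours had a probe set of their own. H2AC20, the neighbour of H2BC21, was named for this position. It read 12.30 to 12.41 under DMSO and 11.37 to 12.28 at 468 nM at 24 h, so every treated array was lower. It fell by 0.53 ± 0.12 (SE; limma adjusted p = 0.00053), while H2BC21 stood 1.66 above DMSO. After 4 h of 468 nM H2AC20 stood at 0.05 ± 0.12 (adjusted p = 0.865) beside 1.38 for H2BC21. The difference between the neighbours was not tested. H2AC14, the neighbour of H2BC14, was too dim for the filter. Its mean was 4.76 ± 0.33 (SD, n = 4) under DMSO and 2.21 ± 0.68 (n = 5) at 468 nM at 24 h without overlap, and 4.69 ± 0.30 and 4.46 ± 0.32 at 4 h.

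**Figure D5:**
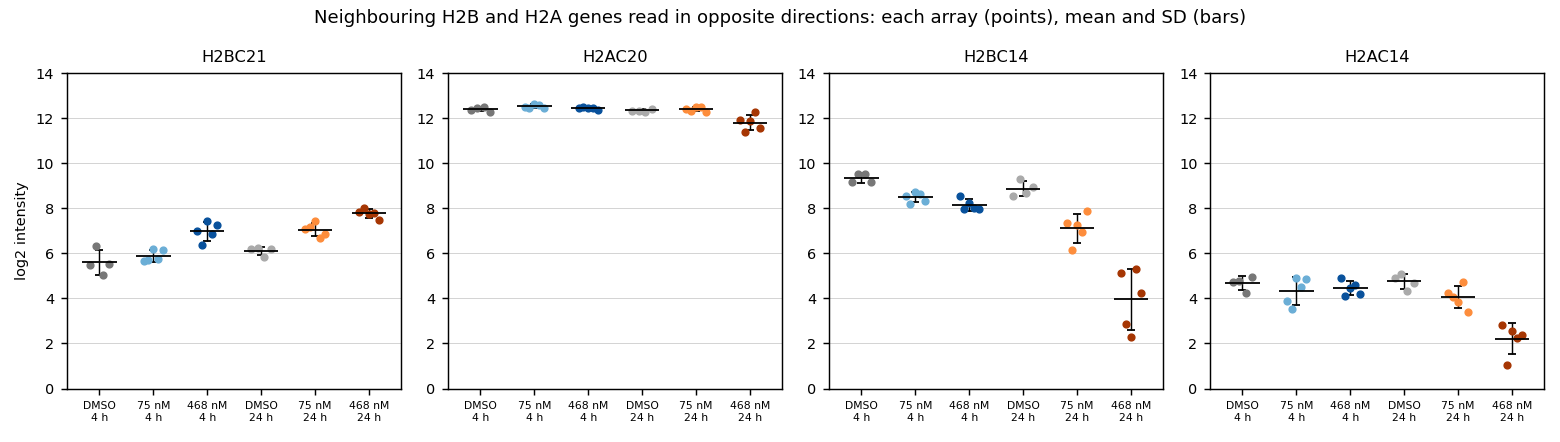
Log2 intensity (vertical axis) of H2BC21 and its neighbour H2AC20, and of H2BC14 and its neighbour H2AC14, by dose and time. Points are arrays, horizontal lines means and bars SD. At 468 nM and 24 h H2BC21 is at 7.78 and H2AC20 at 11.81, above and below their DMSO means of 6.12 and 12.34, while H2BC14 and H2AC14 are both below theirs.

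Of 11 other H2B genes listed, 5 had a probe set of their own and 1 passed the filter. That gene, H2BC26, fell at 468 nM and 24 h by 0.89 ± 0.28 (SE; limma adjusted p = 0.0128), a call that ended with only the groups compared in the fit (adjusted p = 0.0731) or without DMSO replicate 2 at 24 h (0.0593). H2BC1, H2BC15, H2BW1 and H2BW2 were too dim, with differences there between -0.13 and 0.76 and overlapping arrays. A further 5 probe sets each named H2BC4, H2BC6, H2BC7, H2BC8 and H2BC10 together and were assigned to none. Under 468 nM at 24 h 4 of them lay wholly above DMSO (1.34 to 1.70) and 1, probe set 17005603, wholly below it (-2.51 ± 0.31). Of all genes tested, 30.1% did not overlap there in either direction. The mean of 17005603 went from 4.90 to 2.39. Those of the 4 others went from 1.33, 2.97, 4.58 and 5.41 to 2.72, 4.67, 5.93 and 6.75. Values from 1.33 to 2.97 among these are those of dim probe sets.

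Of 8 H2A genes tested (23 listed), 1 rose and 3 fell at 468 nM and 24 h, where 20.4% of all genes were higher and 25.1% lower, so the count was near that background. H2AC6 rose by 0.88 ± 0.20 (SE; limma adjusted p = 0.00102), and the H2A.Z gene H2AZ1 fell by 0.80 ± 0.12 (adjusted p = 1.04e-05). H2AC21 fell by 0.78 ± 0.19 (adjusted p = 0.00157), and H2AC20 was the third. Their median was -0.307, beside -0.019 over all genes. After 4 h of 468 nM 1 H2A gene rose, H2AX, whose product is phosphorylated at DNA breaks (0.67 ± 0.14, adjusted p = 0.00153), where 3.96% of all genes were higher.

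Of 39 listed H3, H4 and linker histone genes, 5 were tested, H3C13 and the linker genes H1-2, H1-4, H1-5 and H1-10. No H4 gene was among them. At 468 nM and 4 h 1 rose, H3C13, by 2.12 ± 0.30 (SE, limma adjusted p = 1.24e-05). Of all genes, 3.96% were higher at that dose and time. After 24 h of 468 nM 1 rose, the linker histone gene H1-10, by 0.49 ± 0.16 (adjusted p = 0.0159), and 3 other linker histone genes fell, H1-5 by 1.31 ± 0.25 (adjusted p = 0.000135), H1-2 by 1.25 ± 0.18 (2.34e-06) and H1-4 by 0.76 ± 0.13 (2.67e-05). H3C13 stood there at 0.67 ± 0.30 (adjusted p = 0.0681). The call of H1-10 ended with arrays shifted to level reference genes (adjusted p = 0.111) and without DMSO replicate 3 at 24 h (0.0698). The median of the 5 at 24 h was -0.756. Of all genes, 20.4% were higher at 468 nM and 24 h and 25.1% lower.

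Of 19 genes tested that act in making histone RNA (20 listed), 2 fell at 468 nM and 4 h and 9 at 24 h, and none of the others passed. Of all genes, 10.9% passed at 4 h and 45.6% at 24 h (25.1% lower). In either direction, the share of these genes that passed was near that background at both times. The share that was lower at 24 h, 9 of 19, stood above the 25.1% of all genes, a difference that was not tested. The median at 24 h was -0.333. COIL, the coilin of nuclear bodies, fell by 0.96 ± 0.18 (SE; limma adjusted p = 0.000499) at 4 h, and ZNF473 by 0.51 ± 0.15 (adjusted p = 0.0203), the latter a call that ended with no filter (0.0711) and when replicate 1 or 5 of 468 nM, or replicate 1 or 3 of DMSO, was left out (0.057 to 0.0678). At 24 h CCNE2, a cyclin of S phase entry, fell by 0.91 ± 0.13 (2.75e-06). ZNF473, which takes part in cutting the end of histone RNA, fell by 0.86 ± 0.15 (2.91e-05), and LSM11, of the U7 particle, by 0.85 ± 0.21 (0.00198). DNA replication genes fell in 28 of 28 tested (29 listed) at 468 nM and 24 h, beside the 25.1% of all genes, with a median of -1.21. GINS2, of the helicase complex, fell by 1.94 ± 0.22 (adjusted p = 1.14e-07), RFC3, of the clamp loader, by 1.83 ± 0.16 (1.21e-09), and TYMS, which makes thymidylate, by 1.61 ± 0.13 (3.06e-10). At 4 h 3 of the 28 passed, ASF1B, a histone chaperone, higher by 0.46 ± 0.12 (adjusted p = 0.0126), and the chaperone gene CHAF1B (-0.47 ± 0.13, 0.0176) and the primase gene PRIM1 (-0.49 ± 0.14, 0.0257) lower. All 3 of these calls at 4 h ended with no filter (adjusted p = 0.0521, 0.0664 and 0.0875), and each without at least 1 array. ASF1B lost its call without DMSO replicate 1 and with arrays shifted to level reference genes (0.131). CHAF1B lost it with only the groups compared (0.0609) and when 468 nM replicate 5, or either of DMSO replicates 1 and 3, was left out, and PRIM1 when any of 468 nM replicates 2, 3 and 5 or DMSO replicates 2 and 3 was left out (0.0509 to 0.0919). The part of S phase genes in the low values of H2BC14 was not tested.

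Of 12 genes tested that act in H2B ubiquitylation or its removal (14 listed), 3 rose at 468 nM and 4 h and 5 at 24 h, and none of the others passed. Of all genes, 3.96% were higher at 4 h and 20.4% at 24 h, and 45.6% passed in either direction at 24 h, near the share of these genes that did. The share that was higher at 24 h, 5 of 12, stood above the 20.4% of all genes, a difference that was not tested. The median at 24 h was 0.156. The 5 became 2 when arrays were shifted to level reference genes. UBE2A, an enzyme that carries ubiquitin to H2B, rose by 0.75 ± 0.14 at 24 h (SE; limma adjusted p = 6.75e-05). ENY2, of the deubiquitylating module, rose by 0.53 ± 0.12 (0.00107), CTR9, of the PAF complex, by 0.42 ± 0.08 (0.000188), and RNF20, the ligase for H2B, by 0.48 ± 0.11 (0.000771). USP22, a ubiquitin protease that acts on H2B, rose by 0.30 ± 0.11 (0.0244). The 3 at 4 h were UBE2A (0.59 ± 0.14, adjusted p = 0.00442), CTR9 (0.50 ± 0.08, 0.000133) and ENY2 (0.49 ± 0.12, 0.00819). With that shift CTR9, RNF20 and USP22 no longer passed at 24 h (adjusted p = 0.0589, 0.0646 and 0.453), nor ENY2 at 4 h (0.0774). USP22 also lost its call with no filter (0.0827), with only the groups compared (0.0921), with repeated quantile normalization (0.0773), and when 468 nM replicate 2 or any of DMSO replicates 2, 3 and 4 was left out (0.0512 to 0.075).

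At 75 nM 0 of the 73 tested genes in these 6 lists passed at 4 h and 0 at 24 h (limma), against 0.679% and 0.872% of all genes. Of the 73, 6 and 17 had an unadjusted p below 0.05. The share of all genes below that unadjusted level is not given here, so nothing is read from these counts.

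Of 8 melanocyte lineage markers, 7 had a probe set and 2 passed the filter, SOX10 and S100B. MITF and the pigment genes PMEL, MLANA, TYR and TYRP1 were too dim for it. Of the markers of other cells, 0 keratinocyte, 0 endothelial, 1 fibroblast (FBLN1) and 1 leukocyte gene (CD68) passed. At 4 h the summed level of the lineage markers was 9.71 to 9.89 under DMSO and 9.13 to 9.55 at 468 nM. At 24 h it was 9.55 to 9.93 under DMSO and 9.94 to 10.64 at 468 nM. The brightest of these genes alone had a mean of 9.55 over all arrays. The sum is of linear intensities, so it need not speak for the other lineage markers. For keratinocyte, endothelial, fibroblast and leukocyte markers the summed level lay between 4.78 and 6.73 on all arrays.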

How the data were processed

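RNA of 28 CHL-1 samples was measured on Affymetrix arrays. Per the submitters' processing notes the authors used RMA, and the deposited values are intensities on a linear scale; for the RMA version and the build, the entry is "not given in the sources used here". Log2 of these deposited intensities was taken. Of 53617 probe sets, 23871 had 1 gene symbol in the platform annotation, 1842 several and 27904 none. Symbols were updated by gene ID to RefSeq GRCh38.p14, and the probe set of highest mean stood for a gene. Promoters came from the same RefSeq table.

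All 6 groups were fitted with limma 3.58.1 in R 4.3.3 (lmFit, contrasts.fit, eBayes; 22 residual degrees of freedom), with Benjamini-Hochberg adjustment over 9285 genes. Fold values are back-transformed from differences of mean log2 values. The number of arrays limits the precision. The script was tested on simulated data. With Python 3.11.15, alternatives varied the filter, fit, scaling, probe set rule and block, and left out each array.

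The 10 members and all gene lists were chosen with earlier results of these data known. Named list genes were those past the threshold in any dose comparison, up to 4 per list by size, and every other H2B gene with a probe set of its own. Outside this rule, H2AC20 and H2AC14 were named for their position, and probe set 17005603, H1-10, USP22, ASF1B, CHAF1B and PRIM1 after their values were seen.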

Additional observations from a re-analysis of the deposited data

Results flagged for a closer look

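For H2BC21 (probe set 16692632), DMSO replicate 3 at 24 h was the lowest of its group at 5.86, with the nearest array at 6.18. The gap made up 0.91 of the group's range. It was the only 1 of 72 groups of 4 or 5 arrays (12 probe sets) so marked, and chance marks about 1 in 20.

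The difference of 468 nM from DMSO was not the same at 24 h as at 4 h for 3 of the 10 members in limma's interaction term, against 23.5% of all genes tested. It was lower at 24 h by a difference of -3.71 ± 0.59 (SE) for H2BC14 and -1.16 ± 0.39 for H2BC17, and higher by 2.58 ± 0.44 for H2BC18. The members were chosen on these contrasts, so the values are a description. The H2BC17 difference no longer passed with no filter or without DMSO replicate 1 or 4 at 4 h, DMSO replicate 3 or 4 at 24 h, or 468 nM replicate 2 or 5 at 24 h.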

How the results depend on the processing

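Of 3068 values of a member's change under an alternative, 2975 kept their side of the threshold, 46 lost it, 47 gained it and 0 called values changed sign. The count of members past the threshold at 75 nM and 4 h was 0, and 1 with only the groups compared, with repeated quantile normalization or with the mean of a gene's probe sets. At 75 nM and 24 h it was 2, against 0 with no filter, 4 with only the groups compared and 1 with arrays shifted to level reference genes. With the filter at 7, under which 3 members were tested, it was 2 at 468 nM and 4 h (4 in the report), 2 at 468 nM and 24 h (6), 1 between doses at 4 h (3) and 1 for the difference of 468 nM between times (3). For DMSO over time it was 1, and 0 with no filter, with the filter at 7 and with only the groups compared. Fewer genes or arrays enter several of these; otherwise the cause was not tested.

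Leaving out single arrays gave 0 to 1 members at 75 nM and 4 h, 3 to 5 at 468 nM and 4 h, 0 to 3 at 75 nM and 24 h, 5 to 7 at 468 nM and 24 h, 2 to 3 between doses at 4 h, 3 to 5 at 24 h, 0 to 0 and 2 to 4 for the 75 nM and 468 nM differences between times, and 0 to 2 for DMSO over time. The call of H2BC9 at 468 nM and 4 h ended without DMSO replicate 3 or 4, and that of H2BC13 at 468 nM and 24 h without DMSO replicate 2 or 3 or 468 nM replicate 5. For H2BC18, 468 nM against 75 nM at 4 h ended without 75 nM replicate 1 or 3 or 468 nM replicate 3 or 5. That call also ended with no filter (limma adjusted p = 0.0819), only the groups compared (0.15) or arrays shifted to level reference genes (0.0634). Against DMSO at 468 nM and 4 h, H2BC18 lost its call with only the groups compared (0.0642), and H2BC9 with no filter (0.0503).

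Consecutive title codes form 10 sets. Of 26 pairs of arrays within a set, 23 deviated together with a correlation above 0.1 (lowest 0.0148). The median within sets was 0.205, against -0.0458 over 104 pairs of other groups at the same time in other sets, a hint that arrays of a set vary together. Since 3 pairs were not above 0.1 and the labels give the codes no meaning, they were not taken as pairing. With them as a replicate block, 6 members passed at 468 nM and 4 h, 3 at 75 nM and 24 h and 7 at 468 nM and 24 h. H2BC14, lower, was among the 6 (limma adjusted p = 0.033). The block could not give DMSO over time.

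Shifting arrays to level 7 reference genes moved the median of all genes by -0.144 at 468 nM and 4 h, -0.139 at 75 nM and 24 h, -0.147 at 468 nM and 24 h, -0.124 between doses at 4 h, -0.118 for the 75 nM difference between times and 0.198 for DMSO over time. It changed the split of higher and lower calls at 468 nM and 24 h from 1896 and 2335 to 973 and 2836. Dim values, as for H2BC18 under DMSO, set the limit of its fold.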
